A study of Mus musculus with 8 samples.

Results

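Endothelin, prostaglandin and purinergic signalling genes were described in mpkCCD, a line grown from mouse cortical collecting duct, the kidney segment where vasopressin acts. The 10 genes were chosen by name as genes of local signals that oppose vasopressin. All 10 were matched among 21883 protein-coding genes of a RefSeq gene table of the mm10 build. They were the ligand gene Edn1, the receptor genes Ednra, Ednrb, Ptger1, Ptger3, Ptger4, P2ry2 and P2rx4, and the cyclooxygenase genes Ptgs1 and Ptgs2. The window of a gene was its span plus 10 kb each side. Chromatin immunoprecipitation followed by sequencing had been made for histone H3 acetylated at lysine 27 (H3K27ac), a mark of active promoters and enhancers. The treated group was mpkCCD clone 11 kept for 24 h with 0.1 nM dDAVP, an analogue of vasopressin selective for its V2 receptor. Its control was the same clone kept for 24 h with vehicle. Both groups had been grown to confluence on permeable supports and had first spent 24 h without serum and hormones, so both lacked the dexamethasone and growth factor of the full medium. Each treatment had 1 peak list in each of 2 experiments. All libraries came from 1 clone, and the experiments are told apart by a number alone, so the spread between them may be technical.

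Vasopressin raises cAMP in principal cells of the collecting duct and so moves water channels to the apical membrane. Endothelin-1, made by the duct itself, acts on the B type receptor of these cells and lowers cAMP and sodium uptake. Prostaglandin E2, formed from arachidonic acid by cyclooxygenases, lowers cAMP through the EP3 receptor (Ptger3), raises calcium through EP1 (Ptger1) and raises cAMP through EP4 (Ptger4). EP4 is thus the receptor of the list that couples towards cAMP. ATP released by the cells acts on P2Y2 (P2ry2), a receptor coupled to calcium release, and on P2X4 (P2rx4), an ion channel opened by ATP.

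Some RefSeq transcription starts lay inside the gene span, by 13684 bp for Ptgs1, 807 bp for Ednrb, 55 bp for Ptger3 and 26 bp for P2rx4. The promoters below show the stretch before the RefSeq start for the members with a called 5′ end that have an entry. Ptger3 and Ednrb, where no list held a peak at the start, are shown as well. Each stretch is the 250 bases before the start, read 5′ to 3′ along the gene. The source was the RefSeq promoter table of GRCm38.p6, the assembly of mm10. The stretches were chr13:42301226-42301475 on the plus strand for Edn1, chr1:150099781-150100030 on the plus strand for Ptgs2, chr2:36230176-36230425 on the plus strand for Ptgs1 and chr15:5244188-5244437 on the minus strand for Ptger4. They were chr7:101012054-101012303 on the minus strand for P2ry2, chr5:122707294-122707543 on the plus strand for P2rx4, chr3:157566626-157566875 on the plus strand for Ptger3 and chr14:103843702-103843951 on the minus strand for Ednrb. Capitals mark TGACG, the core of the cAMP response element, and CCAAT, each on either strand.
Edn1: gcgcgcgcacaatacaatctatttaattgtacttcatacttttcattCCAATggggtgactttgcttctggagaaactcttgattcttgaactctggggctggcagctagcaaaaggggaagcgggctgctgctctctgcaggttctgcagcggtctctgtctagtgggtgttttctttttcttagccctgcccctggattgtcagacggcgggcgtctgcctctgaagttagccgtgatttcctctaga
Ptgs2: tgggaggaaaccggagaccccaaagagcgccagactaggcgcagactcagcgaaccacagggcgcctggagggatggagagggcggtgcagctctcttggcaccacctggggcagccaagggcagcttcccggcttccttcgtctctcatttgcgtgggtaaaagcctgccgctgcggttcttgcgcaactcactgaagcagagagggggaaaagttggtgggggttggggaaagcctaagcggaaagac
Ptgs1: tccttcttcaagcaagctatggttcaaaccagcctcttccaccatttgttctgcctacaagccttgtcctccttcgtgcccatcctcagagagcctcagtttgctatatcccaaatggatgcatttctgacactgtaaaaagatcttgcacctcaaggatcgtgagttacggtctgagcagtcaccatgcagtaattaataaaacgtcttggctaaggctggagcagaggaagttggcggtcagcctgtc
Ptger4: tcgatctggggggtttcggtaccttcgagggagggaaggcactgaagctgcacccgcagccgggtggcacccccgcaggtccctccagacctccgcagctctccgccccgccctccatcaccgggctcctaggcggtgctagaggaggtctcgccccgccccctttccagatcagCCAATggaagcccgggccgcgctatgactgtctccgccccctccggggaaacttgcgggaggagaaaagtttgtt
P2ry2: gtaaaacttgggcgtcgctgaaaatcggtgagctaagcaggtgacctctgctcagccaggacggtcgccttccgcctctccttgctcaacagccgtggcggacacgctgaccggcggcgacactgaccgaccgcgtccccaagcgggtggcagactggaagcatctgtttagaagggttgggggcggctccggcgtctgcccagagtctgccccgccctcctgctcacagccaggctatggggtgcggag
P2rx4: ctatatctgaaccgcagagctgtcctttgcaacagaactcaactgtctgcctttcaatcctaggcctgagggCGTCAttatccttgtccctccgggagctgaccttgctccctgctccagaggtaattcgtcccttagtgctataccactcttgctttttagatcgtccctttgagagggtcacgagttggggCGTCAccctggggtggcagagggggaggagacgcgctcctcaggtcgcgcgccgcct
Ptger3: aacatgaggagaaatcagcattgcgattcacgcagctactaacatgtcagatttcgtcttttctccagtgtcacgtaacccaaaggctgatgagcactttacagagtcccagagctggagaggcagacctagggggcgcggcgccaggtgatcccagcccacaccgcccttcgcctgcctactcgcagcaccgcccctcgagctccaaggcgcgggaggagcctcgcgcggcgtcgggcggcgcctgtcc
Ednrb: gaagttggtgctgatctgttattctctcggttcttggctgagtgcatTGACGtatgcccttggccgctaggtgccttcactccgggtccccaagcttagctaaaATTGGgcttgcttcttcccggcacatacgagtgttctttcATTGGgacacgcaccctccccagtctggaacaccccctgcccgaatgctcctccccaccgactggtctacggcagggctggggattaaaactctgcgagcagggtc
The table held an entry for 9 of the 10 members, with none for Ptger1. Over 300 bases, from 250 before to 50 after the start, TGACG was found in 3 of 9 members (Ednrb, Ptgs2 and P2rx4) and in 23.8% of 17491 promoters of protein-coding genes. The Ptgs2 match began at base 14 after the start, so it lies beyond the printed stretch, and P2rx4 had matches beginning at -178 and -57. CCAAT was found in 3 of 9 (Edn1, Ednrb and Ptger4) and in 39.0% of promoters. The full element TGACGTCA, which contains TGACG, was found in 0 of 9 and in 2.34% of promoters. TGANTCA was found in 0 of 9 and in 7.08%, TATAAA in 0 of 9 and 13.3%, and the glucocorticoid response element palindrome in 0 of 9 and 0.00572%. CGCG was found in 6 of 9 and in 49.4% of promoters. All were searched on both strands, and matches are letters in these windows only. Counts of CG pairs in the 300 bases were 28 for P2ry2, 27 for Ptger3, 25 for Ptger4, 18 for P2rx4, 16 for Ptgs2, 15 for Ednrb, 11 for Edn1, 8 for Ednra and 6 for Ptgs1, against a median of 13 over all promoters. Ptger3, with no peak at its start, thus had the second highest count. The Ptgs1 count belongs to a start 13684 bp inside the gene span, not to the outer 5′ end. P2ry2 had another entry, with a start 55 bp inside its span and 30 CG pairs, and its first entry was used.

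Depth per library lay between 27923780 and 32705755 immunoprecipitated tags kept, per the file headers. The lists covered 99.0 Mb (dDAVP) and 104 Mb (vehicle) in experiment 1, and 33.5 Mb (dDAVP) and 56.9 Mb (vehicle) in experiment 2. The ratio of covered length, dDAVP over vehicle, was 0.951 in experiment 1 and 0.590 in experiment 2, so less of the genome was called with dDAVP in both, and any count of covered bases moves with this. Of 11 principal cell markers 7 had a peak at the 5′ end in all 4 lists (Aqp2, Aqp3, Avpr2, Scnn1a, Scnn1g, Hsd11b2 and Gata3), as had 5 of 5 general epithelial genes. Aqp4 and Tfap2b had no peak at the 5′ end in any list, and Scnn1b and Elf5 had one in 1 list. Such calls in all 4 lists were found for 1 of 5 intercalated cell and 1 of 4 proximal tubule markers. They were found for 0 of 3 thick limb and distal tubule, 0 of 5 vascular smooth muscle, mesangial and fibroblast, 0 of 4 endothelial, 0 of 3 leukocyte and 0 of 2 podocyte markers. Among these, the leukocyte marker Cd68 had the 5′ end called in 3 lists, Col1a1 in 2, and Acta2 and Slc12a3 in 1. The windows of Slc12a3, Pdgfrb, Pecam1, Cd68 and Csf1r held a peak in all 4 lists. Over all protein-coding genes, 43.9% had the 5′ end called in all 4 lists.

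Acetylation lay at 8 of the 10 genes. The window held a peak in all 4 lists for Edn1, Ptger1, Ptger3, Ptger4, Ptgs1, Ptgs2, P2ry2 and P2rx4, and in no list for Ednra and Ednrb. Over all protein-coding genes 57.4% had a peak in the window in all 4 lists and 32.8% in none. The 5′ end (1 kb each side) was called in all 4 lists for 7 of 10 members, against 43.9% of all protein-coding genes, and Ptger3 was the member with peaks in its body alone. The gene table gives no strand for Ptger1 and for those genes either end was taken. With peaks of an authors' fold of at least 5, both counts were 2 of 10, and with lists of equal covered bases both were 4 of 10. The shares of all protein-coding genes under these cuts were not computed, so these counts cannot be set against 57.4% or 43.9%. In bulk chromatin, fewer cells that carry a mark and less mark per cell cannot be told apart.

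**Figure D1:**
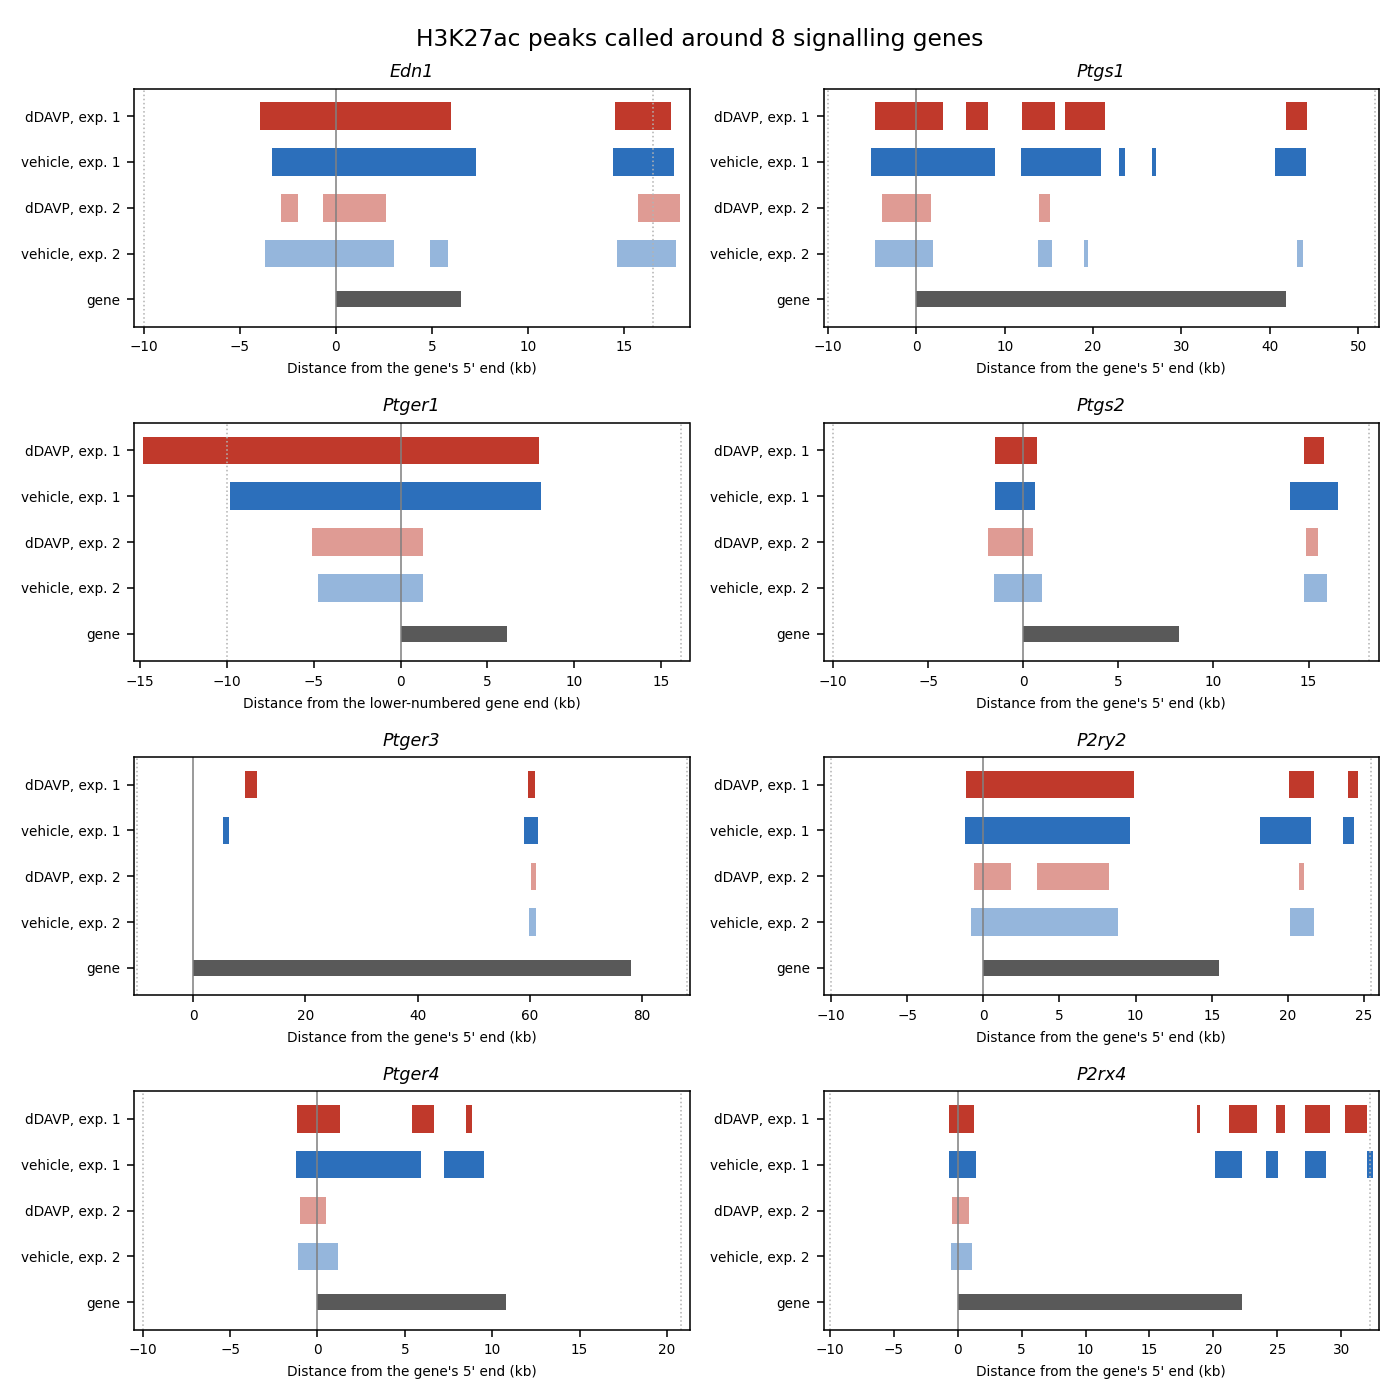
Peaks called in each list (bars) around 8 genes. The x axis is the distance from the gene's 5′ end in kb along the gene (for Ptger1 from the lower-numbered end of its span), the grey bar is the gene, dotted lines are the window's limits, and rows run dDAVP then vehicle within experiments 1 and 2. A peak crosses the start line in all 4 rows of each gene other than Ptger3.

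The ligand gene Edn1, which encodes the precursor of endothelin-1 (chromosome 13, 42301476 to 42307990), had 11939 and 4961 covered bases with dDAVP in experiments 1 and 2, against 12706 and 9531 with vehicle. The dDAVP value was lower in each experiment, while the groups overlapped. In experiment 1 a single peak ran over the start, from -3960 to 5972 bp with dDAVP and from -3303 to 7308 bp with vehicle. In experiment 2 the start peak was shorter, from -669 to 2599 bp with dDAVP and from -3659 to 3031 bp with vehicle, a separate peak of 889 bp lay upstream with dDAVP and one of 948 bp in the gene body with vehicle. A further region beyond the 3′ end, from 14421 to 17909 bp after the start, was called in all 4 lists. It covered 2938 and 2198 bases with dDAVP, against 3170 and 3059 with vehicle. The mean difference in the window, dDAVP minus vehicle, was -2668.5 ± 2689 bases (SD, n = 2 pairs), no larger than its own spread.

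The endothelin receptor genes had no called acetylation. Ednra, the A type receptor gene known from vascular smooth muscle (chromosome 8, 77663029 to 77724452), and Ednrb, the B type receptor gene (chromosome 14, 103814615 to 103844508), had 0 covered bases in all 4 lists. Both also had 0 with windows of 25 kb each side. This says that no region passed the authors' caller there, not that the mark was absent.

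Ptgs2, the inducible cyclooxygenase gene (chromosome 1, 150100031 to 150108234), had 3256 and 2984 covered bases with dDAVP, against 4650 and 3760 with vehicle. It was the only member whose groups did not overlap, both dDAVP lists being below both vehicle lists, as for 6.94% of all genes with a covered base in any list. The mean difference was -1085 ± 437 bases (SD, n = 2 pairs). The exact permutation test over the 4 lists gave p = 0.33, two-sided, and within pairs p = 0.5, each the smallest such a design allows. The peak over the start hardly took part. It was 2209 and 2354 bp long with dDAVP, against 2098 and 2522 bp with vehicle. It also covered the 5′ end of Ptgs2os, a long noncoding RNA gene whose start lies 157 bp away, in all 4 lists, so the mark cannot be given to either gene alone. A second region, 14019 to 16570 bp after the start and beyond the 3′ end (chromosome 1, 150114050 to 150116601), had 1047 and 630 covered bases with dDAVP, against 2552 and 1238 with vehicle. This region was singled out after its values had been seen. With windows of 5 kb, which leave it out, the mean difference was -28.5 bases. With lists of equal covered bases the experiments went opposite ways, with 2209 and 2984 bases with dDAVP, against 2098 and 3760 with vehicle.

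Ptgs1, the constitutive cyclooxygenase gene (chromosome 2, 36216742 to 36258593), had the most covered bases in experiment 1. It had 20738 and 6871 with dDAVP, against 27747 and 9271 with vehicle. The ratio, dDAVP over vehicle, was 0.747 and 0.741 in experiments 1 and 2, the closest pair of ratios below 1 among the members. The lists of experiment 1 were far above those of experiment 2, so the groups overlapped, and the mean difference was -4704.5 ± 3259 bases (SD, n = 2 pairs). At the outer 5′ end 1 region was called in all 4 lists, with 10179 and 5567 covered bases with dDAVP, against 14031 and 6606 with vehicle. The RefSeq start whose promoter is printed above lies 13684 bp inside the span. The lists of experiment 1 covered that promoter, while in experiment 2 the nearest peak began at 13831 bp with dDAVP and at 13791 bp with vehicle, just past the start. At the 3′ end a region of 3619 bp was called in both vehicle lists and in the dDAVP list of experiment 1, with 2326 and 0 covered bases with dDAVP, against 3558 and 637 with vehicle.

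Ptger4, the EP4 receptor gene (chromosome 15, 5233399 to 5244187), had 4026 and 1505 covered bases with dDAVP, against 9471 and 2302 with vehicle. Ratios of 0.425 in experiment 1 and 0.654 in experiment 2 were both at most 0.667, that is 1 over 1.5. Ptger4 was the only member for which this held, as for 3.80% of the 12555 genes with a peak in all 4 lists. With lists of equal covered bases Ptger4 had 0 and 1505 bases with dDAVP, against 0 and 2302 with vehicle, so experiment 1 then gave no ratio and the mean difference was -398.5 bases. At a fold of at least 5 it was -1151 bases. In experiment 1 only 0.605% of those genes had a lower ratio, while in experiment 2 it was 40.3%. In experiment 1 the start peak was 2440 bp long with dDAVP and 7148 bp with vehicle, where it ran on into the gene body to 5938 bp. Separate body peaks were 1232 and 354 bp long with dDAVP, and one of 2323 bp was called with vehicle. The groups overlapped, and the mean difference was -3121 ± 3287 bases (SD, n = 2 pairs), within its spread.

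Ptger1, the EP1 receptor gene (chromosome 8, 83666644 to 83672756), was the member with more covered bases with dDAVP in both experiments. It had 17974 and 6345 with dDAVP, against 17910 and 6030 with vehicle, a mean difference of 189.5 ± 177 bases (SD, n = 2 pairs). The differences of 64 and 315 bases are small beside peaks of 6030 to 22794 bp. In each list 1 peak ran over the lower-numbered gene end. It also ran over an end of Gipc1, 1855 bp away, in all 4 lists, so the acetylation there cannot be assigned to Ptger1. On average 46.2% of its window was covered, the highest share of the members. The 3 genes with the most similar shares over the 4 lists were Rps28, Erbb2 and Slc3a2, at Euclidean distances of 5.69, 5.91 and 7.40 percentage points over 4 values.

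Ptger3, the EP3 receptor gene (chromosome 3, 157566821 to 157644758), had 3378 and 1004 covered bases with dDAVP, against 3562 and 1252 with vehicle. This is at most 3.64% of its window of 97938 bp in any list. The region called in all 4 lists lay deep in the gene body, 59038 to 61446 bp after the 5′ end (chromosome 3, 157625859 to 157628267). There it had 1279 and 1004 covered bases with dDAVP, against 2409 and 1252 with vehicle. The peaks of this region stood within their lists at percentiles of the authors' fold of 49.9 and 26.8 with dDAVP, and 56.4 and 13.7 with vehicle. With lists of equal length within each experiment the direction turned, to 3378 and 1004 bases with dDAVP, against 2409 and 0 with vehicle, because the vehicle peaks at the bottom of the lists dropped out. This cut shortens the vehicle lists alone, so the dDAVP values could not change and the vehicle values could only fall.

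P2ry2 (chromosome 7, 100996568 to 101012053) had 13289 and 7428 covered bases with dDAVP, against 14852 and 11263 with vehicle. The mean difference was -2699 ± 1607 bases (SD, n = 2 pairs), and the groups overlapped. The acetylated region ran from the start far into the gene, as 1 peak of 11022 bp with dDAVP and 10822 bp with vehicle in experiment 1. In experiment 2 the vehicle list had 1 peak of 9663 bp there, while the dDAVP list had 2 peaks of 2423 and 4723 bp, with a gap between 1782 and 3531 bp after the start. Of these the body peak had the higher fold, 6.49 at percentile 88.2 of its list, and the start peak 3.66 at percentile 43.3. A region beyond the 3′ end, 18161 to 21745 bp after the start, had 1647 and 282 covered bases with dDAVP, against 3340 and 1600 with vehicle.

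P2rx4 (chromosome 5, 122707518 to 122729739) went opposite ways in the experiments. It had 8854 and 1272 covered bases with dDAVP, against 7077 and 1583 with vehicle, a mean difference of 733 ± 1476 bases (SD, n = 2 pairs). Its start peak was compact in every list, 1996 and 1272 bp with dDAVP, against 2136 and 1583 bp with vehicle. In experiment 1 its fold was the highest among start peaks of the members, 7.39 with dDAVP and 7.21 with vehicle, at percentiles 92.1 and 89.8 of these lists. All other peaks of the window were in experiment 1, 5 with dDAVP and 4 with vehicle, and lay 18720 to 32465 bp after the start. Of these, 2 with dDAVP and 1 with vehicle began in the body of P2rx4, and 3 with dDAVP and 3 with vehicle lay beyond its 3′ end. The span of Camkk2, a kinase gene (chromosome 5, 122718380 to 122779522), overlaps that of P2rx4 and holds all 5 and all 4 of them, so they cannot be assigned to P2rx4. Camkk2 was named after its position had been seen. Percentiles of these peaks ranged from 1.08 to 41.8. The higher dDAVP value of experiment 1 came from these peaks, since at the start dDAVP covered fewer bases in both experiments.

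**Figure D2:**
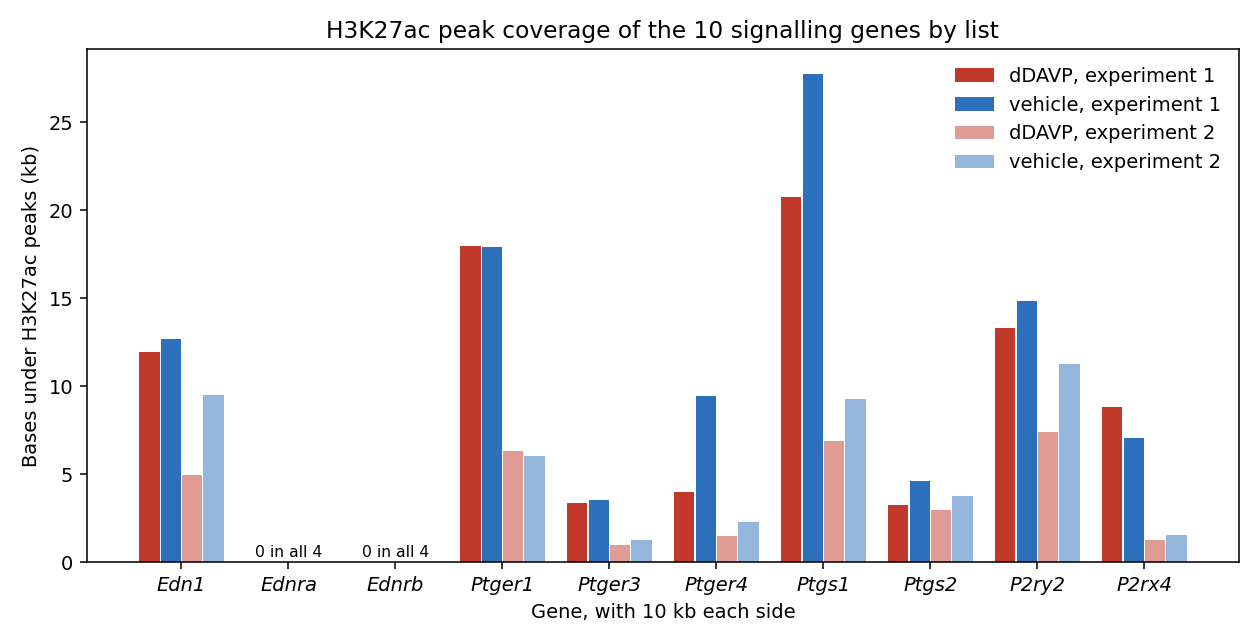
Bases of each gene window (gene plus 10 kb each side) under called peaks, in kb, 1 bar per list and no error bars since a list gives 1 value. Bars run dDAVP then vehicle within experiment 1 (dark) and experiment 2 (pale), Ednra and Ednrb are at 0, and experiment 1 exceeds experiment 2 of the same treatment at every other gene.

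Set side by side, 6 of the 8 covered members had fewer covered bases with dDAVP in both experiments (Edn1, Ptger3, Ptger4, Ptgs1, Ptgs2 and P2ry2), against 49.3% of the 14695 protein-coding genes with a covered base in any list. Of the 8, 1 had more in both, against 2.51% of these genes. All 8 had a peak in all 4 lists, while the 14695 also hold genes without one in some list. Both shares over only the 12555 genes with a peak in all 4 lists were not computed. The median ratio of the 8 members was 0.917 in experiment 1, where the median over the 12555 genes with a peak in all 4 lists was 0.987. In experiment 2 it was 0.767, against 0.714 over those genes. The members' median was thus below that of all genes in experiment 1 and above it in experiment 2, with 6 of 8 members below the median gene in experiment 1 and 3 of 8 in experiment 2. Summed over the 10 windows, dDAVP lists covered 83454 and 32370 bases in experiments 1 and 2, against 97975 and 44992 in vehicle lists. Per 1000 covered bases of a list, the windows took 0.843 and 0.965 in the dDAVP lists, against 0.941 and 0.791 in the vehicle lists, so relative to what was called the direction differed between the experiments. With 2 pairs no exact test within experiments can go below p = 0.5, so no member could pass, whatever its values. When both dDAVP lists had to be below both vehicle lists, 1 member was counted in place of 6.

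**Figure D3:**
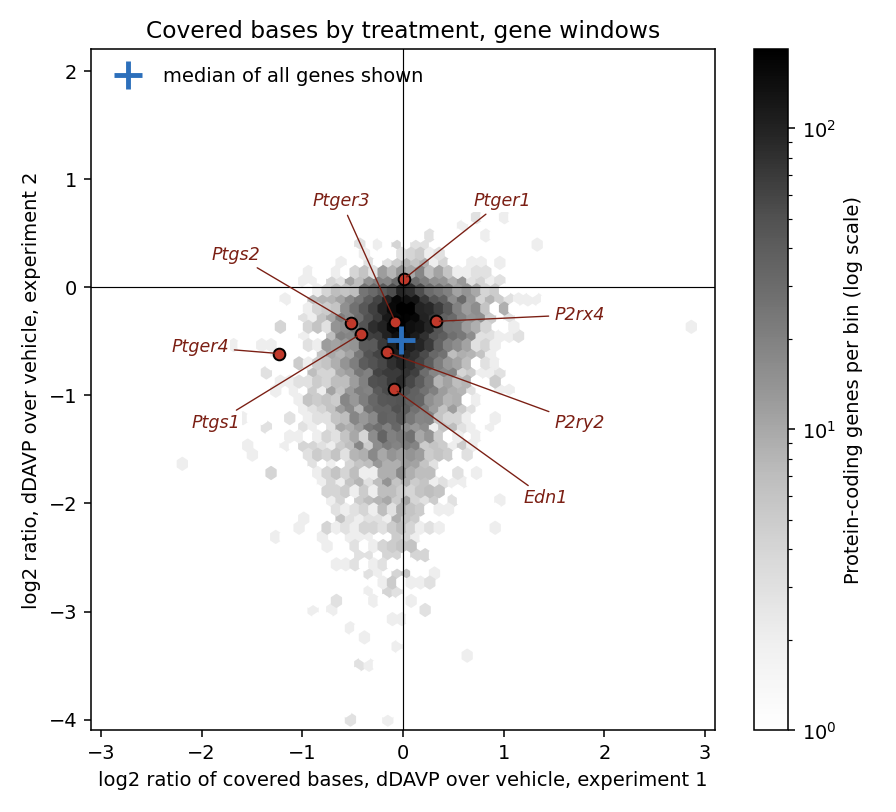
Ratio of covered bases in the gene window, dDAVP over vehicle, on a log2 scale, in experiment 1 (x axis) and experiment 2 (y axis). Red points are the 8 covered members, grey bins count the 12555 genes with a peak in all 4 lists (values beyond an axis are drawn at its limit), and the cross is their median, at ratios of 0.987 and 0.714. Ptger4 lies farthest left of the members, Edn1 lowest, and Ptger1 alone is above 0 on both axes.

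No region of these genes was called by treatment. The 4 lists merged to 45705 union regions, of which 24 overlapped a member's window. Of the 24, 0 were dDAVP-only (called in each dDAVP list, absent from each vehicle list), against 0.0635% of all union regions, and 0 were vehicle-only, the opposite case, against 2.51%. A share of 2.51% in 24 regions is less than 1 region, so 0 says little. All 4 lists called 12 of the 24, against 36.2% of all union regions, both lists of experiment 1 alone called 6, and 1 list called 5. The single region in 3 lists was that at the 3′ end of Ptgs1. At the 5′ ends 7 of 7 regions were in all 4 lists, and elsewhere 5 of 17, namely those beyond the 3′ ends of Edn1, Ptgs2 and P2ry2 and those in the bodies of Ptger3 and Ptgs1. The 36.2% mixes both kinds of region, and the share of each kind over all genes was not computed. Whether this contrast differs from that at other genes was therefore not tested.

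By their medians, peaks at the starts ranked above the other peaks of these windows within each list. Single peaks crossed this order, and in the dDAVP list of experiment 2 the peak in the body of P2ry2, at percentile 88.2, ranked above every start of the members. The authors' fold at the 7 called starts had a median percentile of 81.8 and 70.8 in the dDAVP lists of experiments 1 and 2, and 83.0 and 84.7 in the vehicle lists. Over all called starts of genes with a known strand, the medians were 85.4 and 73.2 in the dDAVP lists, and 85.8 and 79.6 in the vehicle lists. The members' medians lay between the quartiles of all called starts in each list. They include Ptger1, whose strand is not known. Edn1 (72.6), Ptger4 (71.5) and P2ry2 (72.7) were below the lower quartile of 74.4 in the dDAVP list of experiment 1. Ptger4 (51.7) and P2ry2 (43.3) were below that of 53.5 in the dDAVP list of experiment 2. Ptger4 (74.1) was below that of 75.2 in the vehicle list of experiment 1. No start of a member was above the upper quartile of its list. The other peaks had median percentiles of 32.5 and 38.4 in the dDAVP lists, and 29.5 and 26.1 in the vehicle lists. Fold and percentile are the authors' values within a list and make no comparison between treatments.

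**Figure D4:**
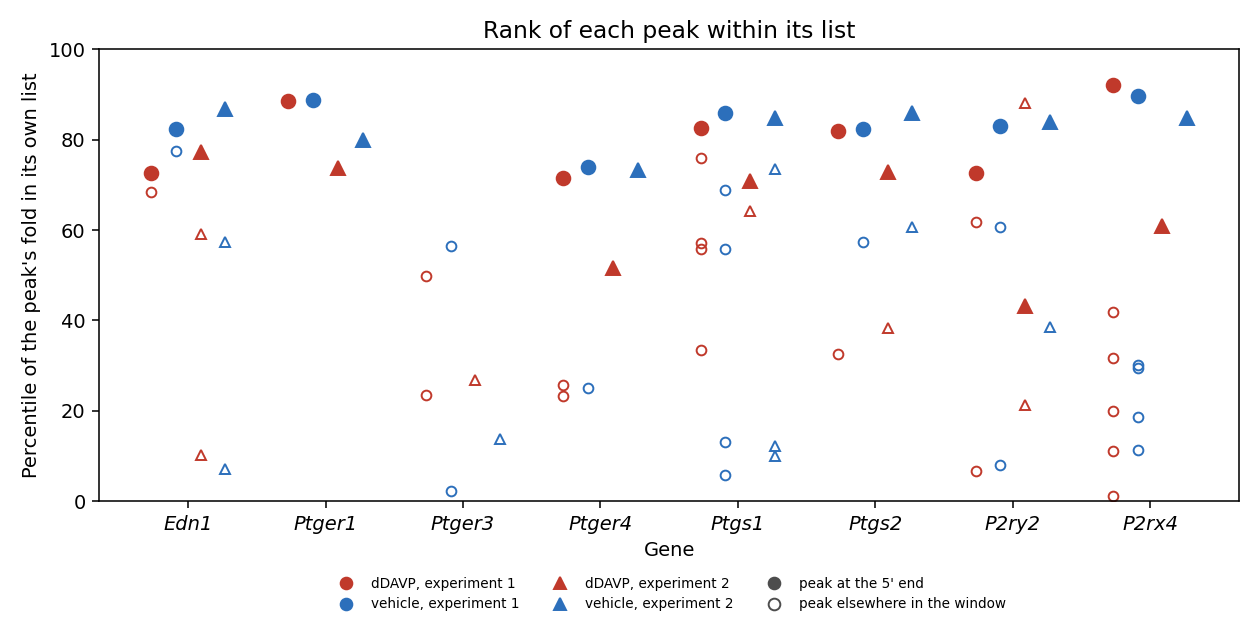
Percentile of each peak's fold within its own list (y axis), for the 8 covered genes (x axis). Filled symbols are peaks at the 5′ end and open symbols the other peaks of the window, circles are experiment 1 and triangles experiment 2. Filled symbols lie at or above percentile 43.3, the dDAVP start peak of P2ry2 in experiment 2, and Ptger3 has open symbols alone.

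Of 47 other genes of the 3 pathways, 13 had the 5′ end called in all 4 lists, a share below the 43.9% of all protein-coding genes. They were 2 of 6 endothelin genes, 5 of 17 prostanoid genes and 6 of 24 purinergic and adenosine genes. For endothelin these were Ece2, an endothelin-converting enzyme gene, and Mme, the gene of neprilysin, which breaks down peptides. For prostanoids they were Pla2g4a, the phospholipase that frees arachidonic acid, the prostaglandin E synthase genes Ptges2 and Ptges3, Hpgds, a prostaglandin D synthase gene, and Abcc4, an exporter gene. For purinergic signals they were the channel genes P2rx2 and P2rx3, the adenosine receptor gene Adora1, and Entpd1, Entpd2 and Entpd8, whose enzymes break down extracellular ATP. In the dDAVP list of experiment 2 the whole windows of P2rx2, Entpd1 and Hpgds held only 215, 267 and 292 covered bases. Ends of neighbouring genes were not examined for these 13 genes, so their peaks may belong to neighbours. Adora1 had 44220 and 18860 covered bases with dDAVP, against 37957 and 23198 with vehicle. Of the 32 genes with a covered base, 14 had fewer with dDAVP in both experiments and 1, Entpd8, had more (8137 and 2099 with dDAVP, against 6927 and 1814 with vehicle). Over all genes with a covered base these shares were 49.3% and 2.51%, close to those of the 32. Ratios of at most 0.667 in both experiments were found for P2rx6 (0.497 and 0.358) and Entpd2 (0.609 and 0.342), as for 3.80% of genes with a peak in all 4 lists. Of 117 union regions in these windows 2 were vehicle-only, against 2.51% of all union regions. They lay in the spans of Adora2b, an adenosine receptor gene coupled to cAMP (chromosome 11, 62258877 to 62259883), and Entpd3 (chromosome 9, 120541883 to 120542695). The first had 0 and 0 covered bases with dDAVP, against 289 and 992 with vehicle, and the second 0 and 0 with dDAVP, against 687 and 761 with vehicle. No gene of the 3 pathways had a dDAVP-only region.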

How the data were processed

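H3K27ac was measured in 4 immunoprecipitated libraries with 4 inputs. The authors aligned reads with BWA to mm10, per the submitters' processing notes, and the caller was MACS 2.1.1.20160309 with its broad setting, run per library against the matching input, per the file headers (q limit 0.01 strong, 0.1 broad, 1 tag kept per position). The deposited lists give the pileup signal, the fold ratio over local background and -log10 p and q, whose column names had been lost and were read from the caller's order. Lists were attached to the input records, and their headers name the immunoprecipitated library. Peaks on the 19 autosomes, X and Y were kept. With Python 3.11.15, covered bases per window, calls (1 bp overlap) and merged union regions were computed and checked on simulated lists. Strand was known for 17491 of 21883 genes, and either end was taken for the other 4392.

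dDAVP was compared with vehicle within each experiment, whose number in the titles pairs the lists (correlation of deviations from the treatment means 0.676 over 14695 genes). Members, gene lists and rules were chosen with earlier results of these data known. The named genes are the members, pathway genes called at the 5′ end in all 4 lists, with a treatment-only region or with a ratio past 1.5 or its inverse in both experiments, neighbours with an end under a window's peak, and the 3 genes most like the most covered member. Alternatives were stricter peaks, lists cut by fold to equal length or covered bases, other windows and overlaps, each list left out, and no pairing. Percentages over all genes are descriptions, and no list was tested. One neighbouring gene's result is not reported here.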

Additional observations from a re-analysis of the deposited data

How the results depend on the processing

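The count of 6 members with fewer covered bases with dDAVP stayed between 4 and 6 under every cut of the lists and window. It was 1 with no replicate block, where both dDAVP lists had to be below both vehicle lists. With 1 list left out, only 1 experiment kept both lists, and 6 or 7 members were lower in that experiment. Such a count cannot fall below 6, so it does not show how steady the 6 are. Members with a window call or a 5′ end call in all 4 lists numbered 2 and 2 at a fold of at least 5, and 4 and 4 with lists of equal covered bases, against 8 and 7. The shares of all protein-coding genes called under these cuts were not computed. The count of 1 member with more covered bases was 2 with lists of equal length within each experiment. It was 0 with windows of 5 kb, 0 with windows of 25 kb and 0 with no replicate block. With 1 list left out, where again 1 experiment alone is counted, it was between 1 and 2 and could not be lower. Regions called by treatment numbered 0 under every cut, and between 0 and 2 (dDAVP-only) and between 0 and 3 (vehicle-only) with 1 list left out. The cause of the changes with fold, list length and window was not tested.

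The summed difference, dDAVP minus vehicle, of -13571.5 bases was -17803 at a -log10 q of at least 5, -25060.5 at a fold of at least 5, -10963 where lists were cut to equal length per experiment, and -16793 where they were cut to equal covered bases. Without 1 list it ranged from -40063 to 12920, and it was positive without vehicle replicate 1 (12920) and without dDAVP replicate 2 (11970.5). Such fits leave the groups unequal in experiment, and experiment 1 covered more. In the same way Edn1 turned to 820.5, Ptger3 to 971, Ptgs1 to 2229 and P2ry2 to 231.5 without dDAVP replicate 2. Ptger3 turned to 939, Ptger4 to 463.5 and Ptgs1 to 4533.5 without vehicle replicate 1. Ptger1 turned to -5625 without dDAVP replicate 1 and to -5750.5 without vehicle replicate 2. With 1 list left out, values farthest the other way were -6157.5 for Edn1, -1403 for Ptger3 and -5629.5 for P2ry2 without dDAVP replicate 1. Likewise they were 6129.5 for Ptger1 without vehicle replicate 1, and -6705.5 for Ptger4 and -13942.5 for Ptgs1 without vehicle replicate 2. P2rx4 (733) dropped to -3058 when dDAVP replicate 1 was left out and to -2014 when vehicle replicate 2 was. Leaving out dDAVP replicate 2 gave 4524 for P2rx4, and leaving out vehicle replicate 1 gave 3480. It was also negative at a -log10 q of at least 5 (-225.5), at a fold of at least 5 (-861.5), with lists of equal length (-225.5) or equal covered bases (-225.5) and with windows of 5 kb (-194). Ptgs2 (-1085) was -640 without vehicle replicate 1. Under a fold of at least 5, Edn1 (-2668.5) was -8064 and P2ry2 (-2699) was -7881, while Ptgs2 was -28.5. Equal covered bases gave -6171 for Edn1, -6528.5 for P2ry2 and -332.5 for Ptgs2. At that cut the dDAVP list of experiment 1 held 0 bases for Edn1 and P2ry2, against 10612 and 10822 with vehicle. Ptger3 also turned to 986.5 where lists were cut to equal length per experiment, a cut of the vehicle lists alone, and to 502 where lists were cut to equal covered bases. Over all genes with a covered base, 43.9% had fewer with dDAVP in both experiments at equal length within experiments, and 27.6% at equal covered bases, a cut that keeps 7290 and 20124 peaks of the dDAVP lists, and 7162 and 11806 of the vehicle lists. Broad peaks, unequal list lengths and 2 experiments limit what these values can show.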
